A study of Mus musculus with 11 samples.

Results

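The SR splicing factors examined here were 10 genes of the Srsf family, namely Srsf1, Srsf2, Srsf3, Srsf4, Srsf5, Srsf6, Srsf7, Srsf9, Srsf10 and Srsf12, out of 54838 genes in the count files. They were taken by name after the Ensembl gene identifiers had been matched to the mouse GRCm38 annotation. The family was chosen with earlier results of these data known. All 10 lay above 1 CPM (reads of a gene scaled to the total of its library) in each of the 11 libraries and so were among the 16073 genes tested. RNA was sequenced from E14 cells, a line of mouse embryonic stem cells (ESCs) grown with LIF, 36 h after transfection. The cells had received a control scramble siRNA (3 libraries), CMTR1 siRNA 1 (4 libraries) or CMTR1 siRNA 2 (4 libraries), and no genotype differed between the groups. CMTR1 is the enzyme that methylates the ribose of the first transcribed nucleotide of capped RNA, and the comparison asked how transcript levels differed when its mRNA was targeted for 36 h.

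SR proteins hold at least 1 RNA-recognition motif and a tail rich in arginine and serine, the RS domain. They bind enhancer sequences in exons of pre-mRNA, recruit the splicing machinery to nearby splice sites and thereby influence which exons are kept. Several also accompany mRNA to the cytoplasm. Their RS domains are phosphorylated by the SRPK and CLK kinases, and many SR genes limit their own output by splicing in a poison exon that sends the transcript to nonsense-mediated decay. The counts are totals per gene, so productive transcripts and those holding a poison exon were summed. The GENCODE annotation marks 1 or 2 transcripts as targets of that decay in each member except Srsf10 and Srsf12, which have 0.

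Since CMTR1 acts on the first transcribed nucleotide, the 30 bases that end at an annotated start are shown for 6 members, from RefSeq on GRCm38.p6, written 5′ to 3′ with the first transcribed base in capitals. Srsf2 was the member with the highest level per length, Srsf3 and Srsf10 were the pair whose libraries varied most alike, Srsf7 was the member whose libraries separated in one comparison, Srsf12 had the largest difference, and Srsf5 has an annotated start at C.
Srsf2, chr11:116853094-116853123, minus strand: tataaatgcgcgctggggcccgcccgctcG
Srsf3, chr17:29032631-29032660, plus strand: gagcagggtgctataaatagggcgaggggA
Srsf5, chr12:80945470-80945499, plus strand: accgccccggaagtgacgccaggacgtccC
Srsf7, chr17:80207305-80207334, minus strand: tatataagcgcgactccggcctcttccttG
Srsf10, chr4:135856042-135856071, plus strand: ctgcggggcgggaggtgggagggggcctgG
Srsf12, chr4:33209243-33209272, plus strand: gcggctgcgcggccggcccgggagggggcG
RefSeq gave 12 starts for the 10 members, of which 3 belonged to Srsf4. The first base was a purine at 10 of the 12 (G at 7 and A at 3), beside 70% of 32851 RefSeq starts. In the 250 bases upstream, on either strand, the letters GGGCGG (a GC box) occurred at 11 of the 12 starts, beside 32.7% of all starts. CCAAT occurred at 3 of the 12, beside 33.8%, and TATAAA at 2 (Srsf2 and Srsf3), beside 12.4%. These matches describe letters in the windows only. The Srsf4 starts at 131873637 and 131873639 on chromosome 4 have nearly the same window, so the 12 starts are not separate counts. All RefSeq starts include genes not expressed in these cells. The starts shown for Srsf10 and Srsf12 lie 324 and 281 bases downstream of the first base of the gene in the GENCODE annotation, and which start these cells used was not measured.

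The libraries held between 6738478 and 8382318 counts on genes. Cmtr1, the gene targeted, stood at 20.3 ± 2.1 CPM (SD, n = 3) in the control libraries, 19.2 ± 2.45 CPM (n = 4) with CMTR1 siRNA 1 and 17.1 ± 1.68 CPM (n = 4) with CMTR1 siRNA 2. Its libraries overlapped between the groups, and its log2 fold changes of -0.088 (SE 0.11, edgeR adjusted p = 0.743) and -0.25 (SE 0.11, edgeR adjusted p = 0.144) did not pass the test. The 95% interval of Cmtr1 ran from 0.815-fold to 1.09-fold with siRNA 1 (edgeR unadjusted p = 0.41). With siRNA 2 it ran from 0.729-fold to 0.974-fold (edgeR unadjusted p = 0.0257), below the control level. A knockdown was thus not called from the counts with either siRNA, and the groups are called here by their labels. The ESC markers were present in every library. Their summed level over 10 genes, which include Pou5f1, Sox2 and Nanog, was 2723 to 2834 CPM in the control libraries, 2399 to 2611 CPM in those labelled siRNA 1 and 2503 to 2663 CPM in those labelled siRNA 2. Of these 10 markers, 6 were called lower with siRNA 1 and 4 with siRNA 2, beside 1.97% and 3.55% of all genes called lower. With siRNA 1 and siRNA 2 respectively, edgeR's log2 fold changes were -0.57 and -0.54 for Nanog, -0.32 and -0.31 for Zfp42, -0.34 and -0.55 for Esrrb and -0.40 and -0.61 for Klf4, all called. Dppa5a (-0.25) and Pou5f1 (-0.16) were called with siRNA 1 and not with siRNA 2 (-0.13 and -0.033), and siRNA 2 against siRNA 1 gave edgeR adjusted p = 0.144 and 0.0623. The Pou5f1 call was lost under the replicate block (edgeR adjusted p = 0.0586) and without each of the control libraries and siRNA 1 replicates 1, 2 and 4 (adjusted p = 0.0615 to 0.193). The part of this shift in the results below was not tested. A list of 15 fibroblast and differentiated lineage markers summed to between 96.3 and 125 CPM over all libraries, with 12 tested, of which 0 were called with siRNA 1 and 2 with siRNA 2, beside 4.67% and 9.72% of all genes. These were Col1a1 (log2 fold change 0.75, edgeR adjusted p = 6.42e-05) and Col3a1 (-1.42 on 2 to 17 reads, edgeR adjusted p = 0.018), and the Col3a1 call was lost without control replicate 1 (adjusted p = 0.139) or siRNA 2 replicate 2 (0.0525) or 4 (0.071). None of the 15 was at 0 reads in all 11 libraries.

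No SR splicing factor was called different between groups in any comparison. The edgeR quasi-likelihood test with Benjamini-Hochberg adjustment over all genes called 0 of the 10 members at an FDR of 0.05 with siRNA 1 against control, where 4.67% of all genes tested were called. It called 0 of 10 with siRNA 2 against control, beside 9.72% of all genes. It called 0 of 10 for the mean of both siRNAs against control, beside 6.91%, and 0 of 10 for siRNA 2 against siRNA 1, beside 7.44%. At an unadjusted p under 0.05 the counts were 0, 0, 0 and 1, the last being Srsf5. DESeq2 called 0 of the 9 members to which it gave an adjusted p in each of the 4 comparisons (it gave none for Srsf12), and edgeR's exactTest called 0 in the 3 it was run on. In bulk RNA, a change in the make-up of the culture and a change per cell cannot be told apart. A p above the threshold does not show that levels were equal, so the intervals matter more here. For the 9 members other than Srsf12, the 95% intervals lay between 0.889-fold and 1.15-fold with siRNA 1 and between 0.884-fold and 1.13-fold with siRNA 2.

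**Figure D1:**
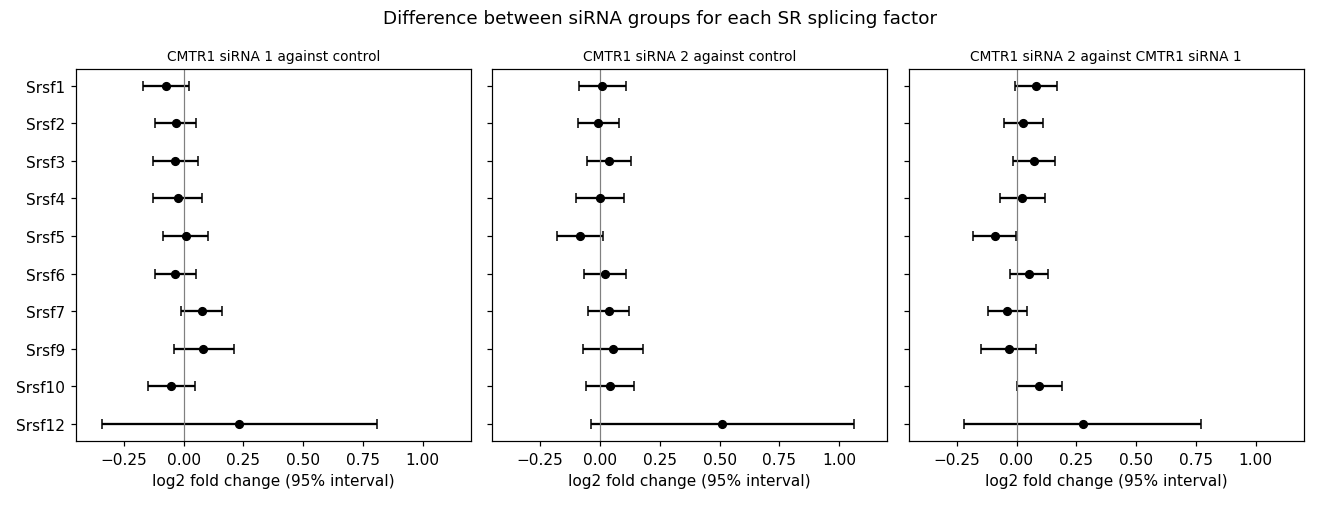
Log2 fold change of each SR splicing factor (points) with its 95% interval (bars) from the fit across all genes, for siRNA 1 against control, siRNA 2 against control and siRNA 2 against siRNA 1. Srsf12, at 9 to 19 reads a library, has intervals several times wider than the other members, whose values lie between -0.092 and 0.093.

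Srsf1 and Srsf2 are the best known activators of exon inclusion, and Srsf1 also shuttles between nucleus and cytoplasm. Srsf1 was measured at 589, 605 and 553 CPM in the control libraries, 521, 536, 598 and 558 CPM with siRNA 1, and 631, 572, 535 and 607 CPM with siRNA 2. The groups overlapped, and the siRNA 2 libraries held both the highest value and one below every control library. The log2 fold change of Srsf1 was -0.074 (SE 0.049, edgeR adjusted p = 0.479) with siRNA 1 and 0.0095 (adjusted p = 0.94) with siRNA 2. Srsf2, a mainly nuclear member, was at 504, 500 and 477 CPM in control libraries, 487, 468, 490 and 483 CPM with siRNA 1, and 501, 513, 455 and 495 CPM with siRNA 2. Its group means of 494 ± 14.8, 482 ± 9.66 and 491 ± 25.1 CPM (SD) differed by less than the spread within the siRNA 2 group. The 95% interval for Srsf2 with siRNA 2 ran from 0.938-fold to 1.06-fold. Counting strand was not stated for the files, and 748 nt of the Srsf2 exons are overlapped on the opposite strand by exons of Mettl23 and Mfsd11.

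Srsf3 and Srsf7 have a single RNA-recognition motif, serve as adaptors for mRNA export and, in Srsf7, carry a zinc knuckle. Srsf3 was at 412, 402 and 366 CPM in control libraries, 359, 376, 406 and 395 CPM with siRNA 1, and 410, 381, 401 and 424 CPM with siRNA 2. Its libraries overlapped in all comparisons, with log2 fold changes of -0.034 (SE 0.048) and 0.038 (SE 0.048) against control. Srsf7 (chromosome 17, 80200080 to 80207307, minus strand, GRCm38) was at 284, 283 and 279 CPM in control libraries, 285, 292, 315 and 297 CPM with siRNA 1, and 281, 283, 293 and 300 CPM with siRNA 2. Every siRNA 1 library lay above every control library, by less than 1 CPM at the nearest. This was the only separation of groups among the 10 members in siRNA 1 against control, where 15.5% of all genes tested had groups that did not overlap. The log2 fold change of Srsf7 was 0.075 (SE 0.045, edgeR adjusted p = 0.411), and the two-sided exact permutation test gave p = 0.0571, the smallest value that 3 against 4 libraries allow. None of the 10 members separated in siRNA 2 against control, in the mean of both siRNAs against control or in siRNA 2 against siRNA 1, beside 19.4%, 6.23% and 11.8% of all genes.

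Srsf4, Srsf5 and Srsf6 share a layout with a pair of RNA-recognition motifs and a long RS domain. Srsf4 was at 123, 122 and 128 CPM in control libraries, 128, 127, 119 and 115 CPM with siRNA 1, and 123, 126, 127 and 120 CPM with siRNA 2. The control and siRNA 2 means were both 124 CPM, and the interval for Srsf4 ran from 0.932-fold to 1.07-fold with siRNA 2. Srsf5 was at 344, 305 and 296 CPM in control libraries, 337, 324, 300 and 307 CPM with siRNA 1, and 301, 290, 302 and 297 CPM with siRNA 2. The siRNA 2 libraries of Srsf5 were the tightest of the 3 groups. Their range of 290 to 302 CPM overlapped the lower part of the control (296 to 344 CPM) and siRNA 1 (300 to 337 CPM) ranges. Its log2 fold change was 0.0086 (SE 0.049, edgeR adjusted p = 0.957) with siRNA 1 and -0.083 (SE 0.049, edgeR adjusted p = 0.308) with siRNA 2. Srsf6 was at 410, 416 and 383 CPM in control libraries, 385, 390, 405 and 395 CPM with siRNA 1, and 409, 407, 388 and 430 CPM with siRNA 2. Its groups overlapped throughout, with log2 fold changes of -0.034 and 0.02 against control.

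Srsf9, with a short RS domain, Srsf10, which turns into a splicing repressor when dephosphorylated, and Srsf12, a close relative of Srsf10 that antagonises SR proteins, made up the remaining members. Srsf9 was at 63, 69.1 and 61.6 CPM in control libraries, 66.6, 69.5, 66.4 and 71.1 CPM with siRNA 1, and 65.2, 69.3, 61.5 and 71.5 CPM with siRNA 2. Its log2 fold changes were 0.083 (SE 0.063, edgeR adjusted p = 0.552) and 0.052 (SE 0.063, edgeR adjusted p = 0.679). Srsf10 was at 239, 237 and 217 CPM in control libraries, 205, 219, 237 and 228 CPM with siRNA 1, and 240, 226, 230 and 254 CPM with siRNA 2. The groups overlapped, with log2 fold changes of -0.053 (adjusted p = 0.662) and 0.04 (adjusted p = 0.696) in edgeR's test.

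Srsf12 (chromosome 4, 33208991 to 33233340, plus strand, GRCm38) was the member at the edge of detection, with 9 to 19 reads a library. It was at 1.4, 1.97 and 1.21 CPM in control libraries, 1.93, 1.87, 1.58 and 1.87 CPM with siRNA 1, and 2.56, 1.79, 2.16 and 2.35 CPM with siRNA 2. Of the siRNA 2 libraries, 3 exceeded every control library and replicate 2 did not. The log2 fold change of 0.51 with siRNA 2 had an SE of 0.28 and a 95% interval from -0.039 to 1.06 (edgeR adjusted p = 0.277), and that with siRNA 1 was 0.23 (SE 0.30, edgeR adjusted p = 0.765). A log2 fold change of larger size was found for 7.43% of all genes tested with siRNA 2. The two-sided exact permutation test on CPM gave p = 0.114 for siRNA 2 against control. At this depth a difference of the size estimated could not be told from none.

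**Figure D2:**
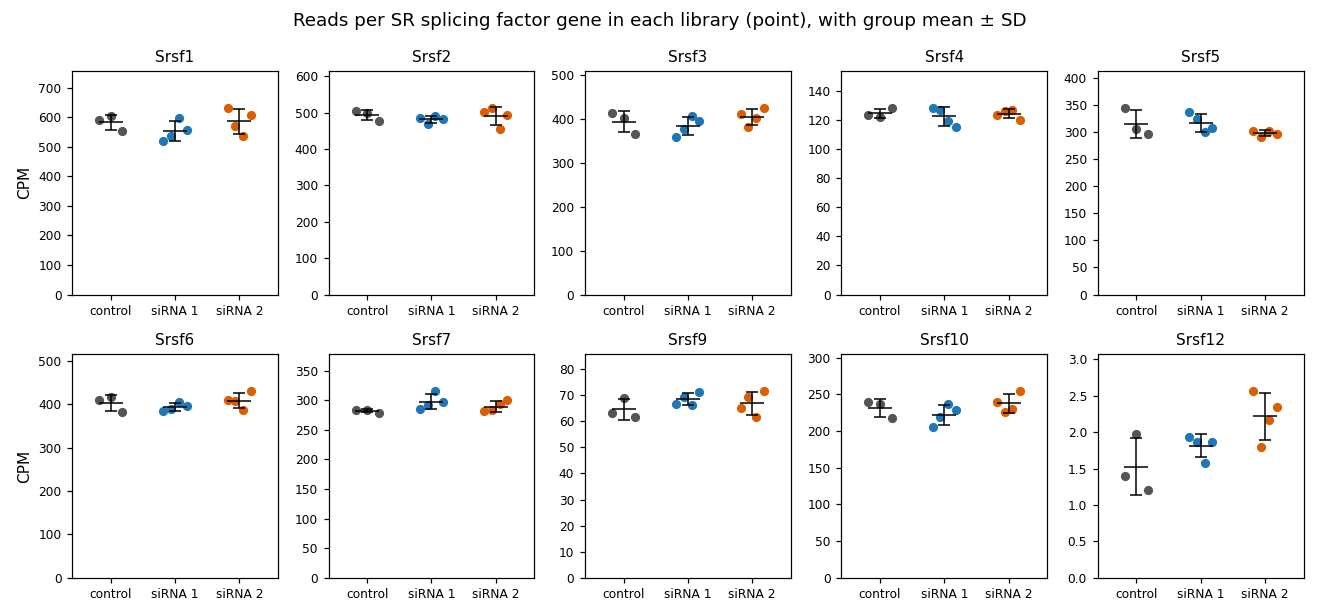
CPM of each SR splicing factor in each library (points), with the group mean and SD (horizontal line and bars) for the control, siRNA 1 and siRNA 2 groups. Each panel has its own axis from 0, and only Srsf7 with siRNA 1 has no point within the range of the control libraries.

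A direct comparison of the libraries labelled siRNA 2 with those labelled siRNA 1 asked whether the 2 siRNAs differed. Srsf5 had the lowest value, a log2 fold change of -0.092 (SE 0.045, edgeR adjusted p = 0.233, unadjusted 0.0485). Srsf10 and Srsf1 had values of 0.093 (edgeR adjusted p = 0.251) and 0.083 (edgeR adjusted p = 0.294), and Srsf3 0.072 (edgeR adjusted p = 0.368). The 95% intervals of the 9 members other than Srsf12 lay between 0.882-fold and 1.14-fold.

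As a family, the 10 genes took 0.276% to 0.3% of the counts in a library. Their sum was 2890 ± 113 CPM (SD, n = 3) in control libraries, 2842 ± 71 CPM (n = 4) with siRNA 1 and 2907 ± 93.5 CPM (n = 4) with siRNA 2, and the ranges of 2761 to 2969, 2776 to 2937 and 2795 to 3002 CPM overlapped. The median log2 fold change of the members was -0.029 with siRNA 1 and 0.028 with siRNA 2, beside medians of 0.024 and 0.029 over all genes tested. Against control, 6 of 10 members were below 0 with siRNA 1 and 3 of 10 with siRNA 2, beside 43.2% and 42.9% of all genes tested.

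To compare levels between members, CPM was divided by the length of the annotated exons in kb. Srsf2 was the highest at 165 ± 5.72 CPM per kb (SD, n = 11), followed by Srsf1 at 100 ± 6.22, and this order held in all 11 libraries. Srsf6 (83.5 ± 3.06), Srsf7 (81.7 ± 2.99) and Srsf5 (77.5 ± 4.44 CPM per kb) formed a middle group whose order did not hold. Srsf6 was above Srsf7 in 6 of 11 libraries and Srsf7 above Srsf5 in 9 of 11. Srsf3 (49.9 ± 2.6), Srsf9 (40.4 ± 2.2) and Srsf4 (34.7 ± 1.16 CPM per kb) followed, with Srsf4 above Srsf10 (32.9 ± 1.9) in 8 of 11 libraries. Srsf12 stood last at 0.597 ± 0.125 CPM per kb. Srsf2 made up 25 ± 0.133% of the family's summed level per kb in control libraries, 24.6 ± 0.436% with siRNA 1 and 24.7 ± 0.889% with siRNA 2, and Srsf1 15.3 ± 0.3%, 14.6 ± 0.63% and 15.3 ± 0.72% (SD). The annotated length counts all exons of a gene, so a member whose long untranslated exons are little used is understated on this scale.

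**Figure D3:**
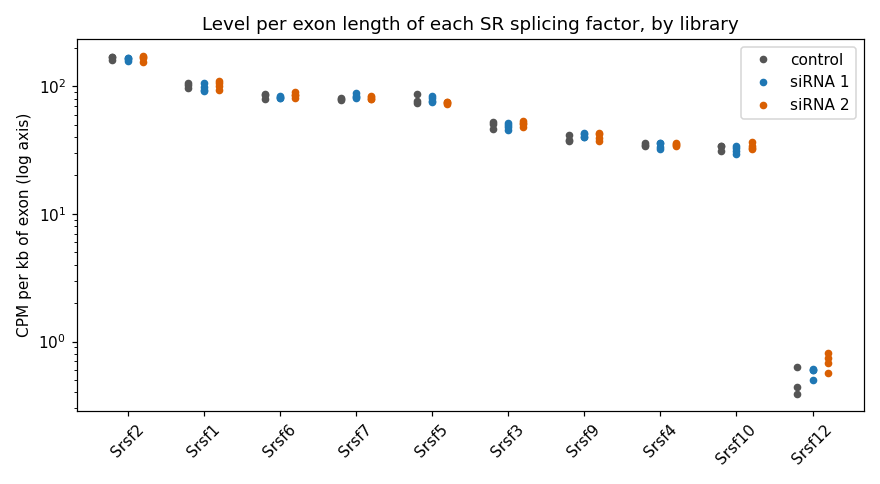
Level of each SR splicing factor in CPM per kb of annotated exon (log axis) in each library, coloured by siRNA group and ordered by the mean over 11 libraries. Srsf2 stands at 154 to 173 and Srsf12 at 0.385 to 0.812 CPM per kb, and the other members between 29.3 and 110.

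The exons of Srsf3, Srsf5 and Srsf10 are in part identical to other annotated genes, over 7.64%, 7.32% and 7.95% of all stretches of 75 nt (Gm12355, Gm9761 and AC141429.1 for Srsf3, Gm12966 for Srsf5, Gm5446 and Gm9134 for Srsf10), so their counts may miss reads that match both. The other 7 members have no such stretch. No member has an exon overlapped by another gene on its own strand. Exons of Srsf1 and Srsf4 are overlapped on the opposite strand over 98 nt (Gm11508) and 1532 nt (Gm12992).

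Although no member was called between groups, several varied together from library to library within groups. The pattern was noticed in the data and is given as a description, with no test. Each member's log2(CPM + 1) was taken less the mean of its group, over the 11 libraries, for the 9 members with a mean of at least 50 CPM. Srsf3 and Srsf10 had Pearson r = 0.97 (Spearman rho = 0.97, n = 11, r = 0.94 without the 2 libraries farthest from the median of Srsf3), and 0.00971% of pairs among the 4522 genes of at least 50 CPM reached this r. Srsf4 ran the other way, with r = -0.83 to Srsf10 (rho = -0.84) and r = -0.80 to Srsf3 (rho = -0.83). Of the 36 pairs of members, 9 (25%) had r of at least 0.7, beside 4.7% of all gene pairs, and 3 had r of at most -0.7, beside 3.7%. Without the 2 libraries farthest from the median of the first gene of a pair, 3 of the 9 fell below 0.7 (Srsf7 and Srsf10 at 0.62, Srsf3 and Srsf6 at 0.63, Srsf6 and Srsf9 at 0.57). The median was 0.27 over pairs of members and 0.027 over all pairs. The points share their libraries and depth, and genes counted in the same library are not independent. The pairs of all genes were not matched to the members for level or GC, so the shares do not show a trait of the family.

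The same libraries also differed in how GC-poor and GC-rich genes were represented. Taking the median deviation of genes with a transcript GC of at most 45% less that of genes with at least 53.8% (the quartiles), this balance ran from -0.10 in siRNA 2 replicate 2 to 0.11 in siRNA 2 replicate 4 on the log2 scale. In the control libraries it was 0.066, 0.015 and -0.076. Srsf3 and Srsf10, at 42.6% and 42.5% GC, each followed this balance with r = 0.97 (rho = 0.94 and 0.96, n = 11, r = 0.94 and 0.98 without the 2 libraries farthest from its median). Srsf4, at 53.7% GC, had r = -0.78 (rho = -0.77). Srsf6, Srsf7 and Srsf1, at 47.7%, 42.1% and 44% GC, had r of 0.77, 0.76 and 0.73. Without the 2 libraries farthest from the median their r was 0.90, 0.65 and 0.71. Srsf5, at 42.9% GC, had r = 0.006 (0.20 without the 2 libraries farthest from the median). Srsf2 and Srsf9, at 50.4% and 50.5% GC beside a median of 49.1% over genes, had r = 0.18 and 0.29, and without those 2 libraries 0.71 and 0.47. The part of GC representation in the covariation of the members was not tested.

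**Figure D4:**
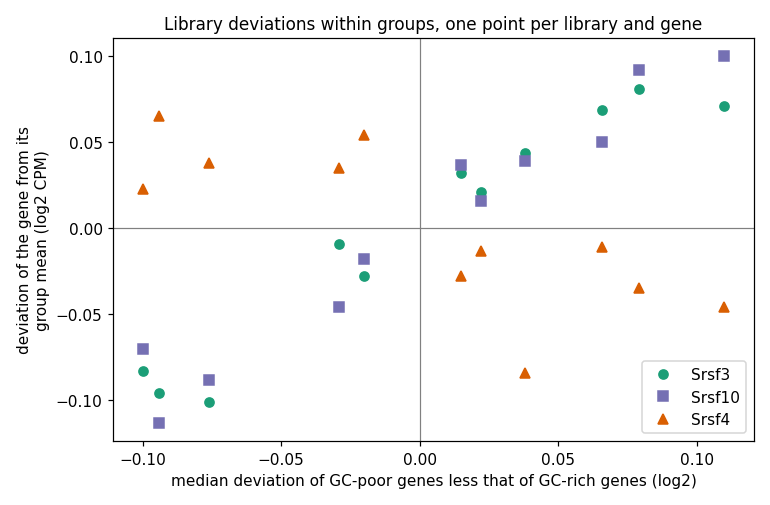
Deviation of Srsf3, Srsf10 and Srsf4 from their group means (log2, vertical axis) in each of the 11 libraries, against the median deviation of GC-poor genes less that of GC-rich genes in the same library (log2, horizontal axis). Srsf3 and Srsf10 rise along the axis with r = 0.97 each and Srsf4 falls with r = -0.78.

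Genes that work with SR proteins were read from lists of fixed membership. Of 30 SR-related splicing regulators, 0 were called with siRNA 1 and 2 were called higher with siRNA 2, beside the 4.67% and 9.72% of all genes given above, and the median log2 fold changes were 0.023 and 0.018. Srrm2, a large scaffold of nuclear speckles where SR proteins gather, was at 1525, 1535 and 1549 CPM in control libraries, 1642, 1660, 1583 and 1623 CPM with siRNA 1, and 1682, 1705, 1757 and 1611 CPM with siRNA 2. Every siRNA library of Srrm2 lay above every control library, beside 6.23% of all genes that separated in this way in either direction. It rose by 0.14 on the log2 scale with siRNA 2 (SE 0.04, edgeR adjusted p = 0.0214), while the value with siRNA 1 was 0.083 (edgeR adjusted p = 0.277). The call was lost without control replicate 1, 2 or 3 (edgeR adjusted p = 0.0751, 0.0795 and 0.0644) and with TMM factors (adjusted p = 0.0776). Srrm4, a regulator of neural microexons, was at 21.2, 15.2 and 16.8 CPM in control libraries, 23, 19.3, 13.6 and 17.5 CPM with siRNA 1, and 28.1, 25.3, 25.1 and 21 CPM with siRNA 2. It rose by 0.48 with siRNA 2 (SE 0.12, edgeR adjusted p = 0.0059), with siRNA 2 replicate 4 just below the highest control library. Without control replicate 2 the adjusted p of Srrm4 was 0.0834. The relatives outside the list of members, Srsf11, Tra2a and Tra2b, had log2 fold changes of 0.036, -0.062 and 0.031 with siRNA 1 and 0.057, -0.032 and 0.031 with siRNA 2, none of them called, and were named after their values were seen.

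Of 15 kinases, phosphatases and import factors of SR proteins, 14 were tested, and 0 were called with siRNA 1 and 1 with siRNA 2, beside 4.67% and 9.72% of all genes. Over this list and the 3 others of related genes, 5 of 87 tested (5.75%) were called with siRNA 2, a share below that of all genes. The 1 of this list was Srpk2, a kinase that phosphorylates RS domains. It was at 78.3, 78.3 and 71.3 CPM in control libraries, 64.3, 68.4, 68.1 and 69.5 CPM with siRNA 1, and 57.4, 61.4, 70.1 and 70.8 CPM with siRNA 2. All 8 siRNA libraries of Srpk2 lay below all 3 control libraries, beside 6.23% of all genes that separated in this way in either direction. It fell by 0.23 on the log2 scale with siRNA 2 (SE 0.065, edgeR adjusted p = 0.0198), and the value with siRNA 1 was -0.17 (edgeR adjusted p = 0.14). The siRNA 2 call was lost without control replicate 1 (adjusted p = 0.0857) or 2 (0.104) and without siRNA 2 replicate 1 (0.111) or 2 (0.0678), by edgeR. The medians of the list were 0.0098 and 0.053.

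The hnRNP and PTB proteins often oppose SR proteins at splice sites. Of 26, 0 were called with siRNA 1 and 1, Ptbp3, with siRNA 2, beside 4.67% and 9.72% of all genes, with medians of -0.019 and 0.005. Ptbp3 was at 81.9, 83.7 and 84.4 CPM in control libraries, 75.2, 84.6, 84.8 and 83.1 CPM with siRNA 1, and 100, 89.8, 87 and 101 CPM with siRNA 2. The siRNA 2 and control libraries of Ptbp3 did not overlap, as for 19.4% of all genes tested. It rose by 0.18 with siRNA 2 (SE 0.06, edgeR adjusted p = 0.0474). This call was lost with DESeq2 (adjusted p = 0.181), TMM factors (0.1), the replicate block (0.11), no expression filter (0.0609), the fit of 2 groups only (0.0544) and Gm26917 left out of the library size (0.0558). It was also lost by edgeR without each control library (adjusted p = 0.109 to 0.136), siRNA 1 replicates 2 and 4 (0.0568 and 0.0577) or siRNA 2 replicates 1 and 4 (0.159 and 0.148). Of 17 factors of nonsense-mediated decay, the pathway that removes poison-exon transcripts, 0 were called with siRNA 1 and 1, Casc3, with siRNA 2, beside the same shares of all genes, with medians of 0.018 and 0.038. Casc3, a subunit of the exon junction complex, was at 90.1, 96.2 and 85.9 CPM in control libraries, 98.4, 90.5, 101 and 91.3 CPM with siRNA 1, and 101, 105, 104 and 100 CPM with siRNA 2. It rose by 0.18 with siRNA 2 (SE 0.056, edgeR adjusted p = 0.0368). The Casc3 call was lost with DESeq2 (adjusted p = 0.147), TMM factors (0.0817) and no expression filter (0.0556), and by edgeR without control replicate 1 (0.0973) or 3 (0.217) or siRNA 2 replicate 1, 2 or 3 (0.0597, 0.0838 and 0.0563).

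**Figure D5:**
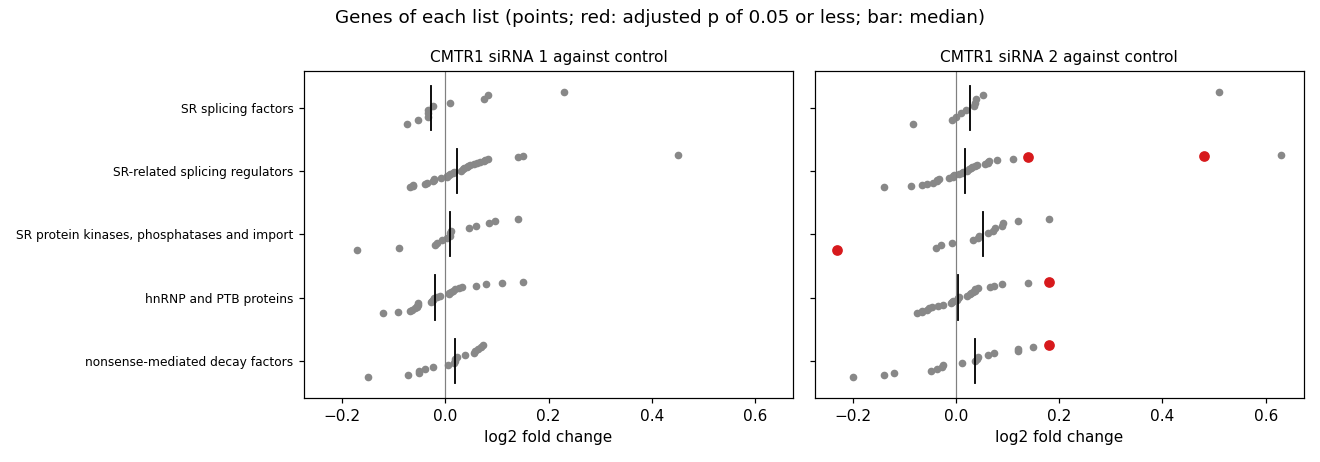
Log2 fold change of every tested gene (points) of the SR splicing factors and 4 lists of related genes, with siRNA 1 and with siRNA 2 against control. Larger red points passed an adjusted p of 0.05 and bars mark list medians, which lie between -0.029 and 0.053.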

How the data were processed

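E14 mouse ESCs were sequenced as directional, rRNA-depleted total RNA in 11 libraries. The authors aligned trimmed reads to GRCm38/mm10 with STAR and deposited raw counts per Ensembl gene. Their methods and the submitters' notes name featureCounts for counting, but the summary lines of the files are not in featureCounts format, so the counter is uncertain. FastQC, cutadapt, Picard and deepTools are also named in the notes, and the counting strand is not given in the sources used here. In 10 of 11 files, summary lines (no feature, ambiguous, not unique) followed the genes and were left out, at 5314618 to 6998875 reads without a feature. The file that lacked them was that of siRNA 2 replicate 4, the library with the highest GC balance given above (0.11). Of 54838 identifiers, 54809 were found in the GENCODE annotation.

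Counts were scaled to the total per library. Genes above 1 CPM in at least 4 libraries were tested with edgeR 4.0.16 (R 4.3.3), quasi-likelihood, over 3 groups with no covariate, adjusted by Benjamini-Hochberg over 16073 genes and called at FDR 0.05. Fold changes have SEs from the F statistic. Their 95% intervals use these SEs with the quantile of a normal distribution, so they are slightly narrower than the test implies. Srsf10 in siRNA 2 against siRNA 1 had a lower bound of 0.00055 on the log2 scale beside an edgeR unadjusted p of 0.0551. Exact permutation tests compared single values. DESeq2 1.42.0 was an alternative, and the test was checked on simulated counts. Figures were drawn with matplotlib 3.10.9.

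Named were all members, Cmtr1 and each list gene called with either siRNA against control. The members and lists were chosen with earlier results of these data known. The labels do not say whether replicates were separate cultures. The authors' methods name 3 biological replicates for sequencing, while each CMTR1 siRNA group here held 4 libraries. The p-values therefore measure the spread between these samples. All replicate pairs differed by more than sampling noise (chi-square per gene 1.29 to 2.82). The exact permutation test on library sizes gave p = 0.457 to 0.857 against control.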

Additional observations from a re-analysis of the deposited data

Results flagged for a closer look

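Of 87 tested genes in the 4 lists of related genes, 5 (5.75%) differed between the libraries labelled CMTR1 siRNA 2 and those labelled CMTR1 siRNA 1 by the direct edgeR comparison, beside 7.44% of all genes. Rsrc1, Rsrp1 and Tnpo3 are named here after their values were seen. Among the 10 SR splicing factors, 0 differed in this way.

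Srrm4 was 0.44 higher on the log2 scale with siRNA 2 (24.9 ± 2.94 against 18.4 ± 3.91 CPM, SD, n = 4 each, edgeR adjusted p = 0.00877), and without siRNA 1 replicate 3 the adjusted p was 0.0592. Ptbp3 was 0.20 higher (94.4 ± 7.03 against 81.9 ± 4.53 CPM, edgeR adjusted p = 0.0179), and its adjusted p was 0.0926 without siRNA 1 replicate 1, 0.0862 without siRNA 2 replicate 1 and 0.083 without siRNA 2 replicate 4. Tnpo3, the importin that carries SR proteins into the nucleus, was 0.16 higher (290 ± 4.56 against 259 ± 14.8 CPM, edgeR adjusted p = 0.0121), and its adjusted p was 0.0624 without siRNA 1 replicate 1 and 0.0552 without siRNA 1 replicate 4. Rsrc1, an SR-related splicing protein, had a log2 value of -0.28 (23.8 ± 1.46 against 29 ± 0.718 CPM, edgeR adjusted p = 0.0216), lost with DESeq2 (0.0579) and without siRNA 1 replicate 2 (0.0711) or 4 (0.0539) or siRNA 2 replicate 1 (0.0726) or 3 (0.0524). Rsrp1 had a log2 value of -0.17 (160 ± 1.53 against 180 ± 10.2 CPM, edgeR adjusted p = 0.0206), and its adjusted p was 0.122 without siRNA 1 replicate 1 and 0.0561 without siRNA 2 replicate 1. Among the 10 ESC markers, 1 was called higher and 1 lower in this comparison, with a median log2 fold change of 0.017. Among the 12 differentiated lineage markers tested, 1 was called higher and 1 lower, beside 7.44% of all genes called in either direction. Of the markers named in the report, Esrrb had a log2 value of -0.21 (104 ± 9.46 against 119 ± 7.61 CPM, edgeR adjusted p = 0.0312), lost with DESeq2 (0.0634) and without siRNA 1 replicate 2 (0.0601), 3 (0.119) or 4 (0.0543) or siRNA 2 replicate 1 (0.118) or 2 (0.123). Col1a1 was 0.76 higher (14.5 ± 1.61 against 8.54 ± 0.549 CPM, edgeR adjusted p = 2.05e-05). The causes were not tested.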

How the results depend on the processing

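Across 740 values of the members under 19 alternatives, of which 11 left out a library, 736 had an adjusted p (DESeq2 gave none for Srsf12) and 0 were called. The smallest adjusted p was 0.0719, for Srsf1 in siRNA 2 against siRNA 1 without siRNA 2 replicate 3. The mean of both siRNAs had no value with exactTest or the fit of 2 groups only. Signs reversed in 51 values of 16 of 40 results, of size at most 0.047 on the log2 scale, and the cause was not tested. With siRNA 1, Srsf5 was -0.011 with TMM factors and -0.015 with DESeq2. With siRNA 2, Srsf1 was -0.015 and -0.019, and Srsf6 -0.0045 and -0.0087. For the mean of both, Srsf3 was -0.02 and -0.024, and -0.0015 with Gm26917, a noncoding RNA, left out of the library size. Srsf4 with siRNA 2 was 0.00023 with exactTest. Over all genes tested, the deviations of same-numbered libraries had a mean r of 0.0107 (10 pairs, -0.078 to 0.0835), beside -0.00358 over 30 other pairs. Such a mean cannot exclude pairing that affects only some genes, and the labels do not say whether the numbers pair libraries. Under the replicate block, Srsf1 and Srsf4 with siRNA 2 were -0.002 and 0.022, Srsf3 and Srsf4 for the mean of both -0.018 and 0.0093, and the genes called with siRNA 1 and siRNA 2 were 840 and 1486, beside 751 and 1562.

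Leaving out each library in turn gave ranges over 11 fits. With siRNA 1 they were -0.083 to 0.00041 for Srsf3, -0.045 to 0.0036 for Srsf4 and -0.033 to 0.076 for Srsf5. With siRNA 2 they were -0.027 to 0.051 for Srsf1, -0.032 to 0.027 for Srsf2, -0.011 to 0.072 for Srsf3, -0.014 to 0.019 for Srsf4, -0.015 to 0.043 for Srsf6 and -0.0024 to 0.065 for Srsf10. For the mean of both they were -0.047 to 0.036 for Srsf3, -0.026 to 0.0071 for Srsf4, -0.079 to 0.03 for Srsf5, -0.042 to 0.016 for Srsf6 and -0.049 to 0.018 for Srsf10. For siRNA 2 against siRNA 1 they were -0.0039 to 0.045 for Srsf4 and -0.066 to 0.0063 for Srsf9. The median of the members was -0.0064 to 0.042 with siRNA 2 and -0.043 to 0.024 for the mean of both. That of SR-related regulators was 0.012 to 0.028 with siRNA 2, and that of decay factors -0.015 to 0.045 with siRNA 1 and 0.012 to 0.05 with siRNA 2.

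List medians shifted with the scaling. With TMM factors and DESeq2, that of SR-related regulators was 0.0034 and -0.00032 with siRNA 1 and -0.0066 and -0.011 with siRNA 2. That of kinases, phosphatases and import factors was -0.01 and -0.014, then 0.028 and 0.024. That of decay factors was -0.0022 and -0.0057, then 0.013 and 0.0094. Genes called higher and lower were 435 and 316 with siRNA 1 (346 and 400 with TMM factors, 199 and 322 with DESeq2) and 991 and 571 with siRNA 2 (728 and 734, 409 and 549). DESeq2 called 958 genes with siRNA 2 and 740 in siRNA 2 against siRNA 1, beside 1562 and 1196. Without 1 library, 355 to 850 genes were called with siRNA 1 (355 without control replicate 2, 447 without control replicate 3 and 424 without siRNA 1 replicate 2) and 807 to 1667 with siRNA 2 (914 without control replicate 2, 807 without control replicate 3 and 1015 without siRNA 2 replicate 1). For the mean of both, 499 to 1215 were called beside 1110 (499 and 502 without control replicates 2 and 3), and for siRNA 2 against siRNA 1, 724 to 1374 (738 and 724 without siRNA 1 replicates 1 and 2, 757 without siRNA 2 replicate 1).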

Other observations

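Within groups, neighbours were sought among 4522 genes of at least 50 CPM. The genes whose libraries varied most like Srsf3 were Hnrnph1 (r = 0.98, n = 11), Srsf10 (r = 0.97) and Ipo7 (r = 0.97). For Srsf10 they were Syncrip (r = 0.98), Eed (r = 0.98) and Trnt1 (r = 0.97). Hnrnph1 and Syncrip encode RNA-binding hnRNP proteins, and Eed a subunit of Polycomb repressive complex 2. Those most like Srsf4 were Rpn1 (r = 0.95), Tmbim6 (r = 0.94) and Ptch1 (r = 0.94). The correlations are descriptions over deviations from group means, chosen after the data were seen, and share libraries and depth.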
